A study of Mus musculus with 8 samples.

Results

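Common monocyte progenitors (cMoPs), the Ly6C+ committed precursors from which monocytes arise, were compared with Ly6C+ classical monocytes after both had spent 6 h on OP9-DLL1 stroma. The comparison takes 4 of the 8 libraries of the series, 2 of cMoPs and 2 of monocytes on OP9-DLL1, and was described over all 13374 genes that passed the filter. The other 4 libraries hold the same cell types on plain OP9. Both cell types were sorted from the bone marrow of wild-type mice, without any further allele or drug given in the labels. OP9 is a stromal line from mouse bone marrow, and OP9-DLL1 carries the Notch ligand Delta-like 1. All 4 libraries therefore come from cells that met the ligand, and the differences below are differences between cell types on that stroma. Neither the age of the mice nor the source of the replicates (animal, sort or culture) is given, so the spread behind each p-value may be technical.

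As background, monopoiesis runs from granulocyte-monocyte progenitors through the cMoP, which still divides and carries KIT, to the Ly6C+ monocyte, which leaves the marrow for inflamed tissue or converts to the Ly6C-low nonclassical monocyte. Progenitors of this branch make the serine proteases and myeloperoxidase that are stored in primary granules, and stop doing so as they mature. Conversion to the nonclassical monocyte depends on NR4A1 and C/EBPβ, and Notch2 signalling from Delta-like 1 promotes it; the title of the study names Bcl6 and Irf2 besides Notch2.

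The deposited values are log2 CPM, that is, reads after scaling for library size, which correspond to between 51237246 and 57732330 gene reads in each of the 4 libraries, so that 1 read is worth 0.0169 to 0.0205 CPM. Differences below are log2 values, cMoPs minus monocytes on OP9-DLL1, with the standard error (SE) of a limma fit that takes its spread from all 8 libraries, and a gene was called at an adjusted p below 0.05. The median difference over all genes was -0.01. Between the 2 libraries of a group, 752 genes of the monocytes and 804 of the cMoPs lay more than 2-fold apart, against 1445 in the monocytes on plain OP9.

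The labels were checked on the genes that define the cells. Kit, the stem cell factor receptor that marks cMoPs, had 0.0103 and 0.281 CPM in the monocyte libraries and 8.98 and 5.91 CPM in the cMoP libraries (log2 difference 7.08, SE 1.26, limma adjusted p = 0.00114). The 0.0103 CPM lies below the 0.0205 CPM of 1 read there, so this difference depends on the reads added before the log. Over the groups, Kit had 14 reads in monocytes and 861 in cMoPs. Csf1r, the M-CSF receptor that both populations carry, had 743 and 695 CPM in monocytes and 271 and 264 CPM in cMoPs. Ly6c2, which encodes Ly6C, had 1135 and 1007 CPM in monocytes and 2314 and 2065 CPM in cMoPs. Both cell types thus carried Csf1r and Ly6c2 RNA, and Kit separated them without overlap. Flt3 was not analysed here.

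Of the 13374 genes, 3768 (28.2%) were higher and 3903 (29.2%) lower in cMoPs, so 7671 genes (57.4%) were called. With so many genes called, the count of a gene list has to be read against these shares. Under a stricter null, a difference of at least 2-fold, 1002 genes (7.49%) were higher and 1176 (8.79%) lower. The call held whichever 1 of the 8 libraries was left out for 2537 of the higher genes (19% of those tested) and 2565 of the lower genes (19.2%). The groups did not overlap for 11075 genes (82.8%), among them every called gene. In cMoPs the higher lists were those of primary granules, progenitor regulators, DNA replication, ribosome assembly and nucleotide synthesis. The lower lists were those of monocyte identity, antigen presentation, pathogen sensing, chemoattraction and inflammation.

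**Figure D1:**
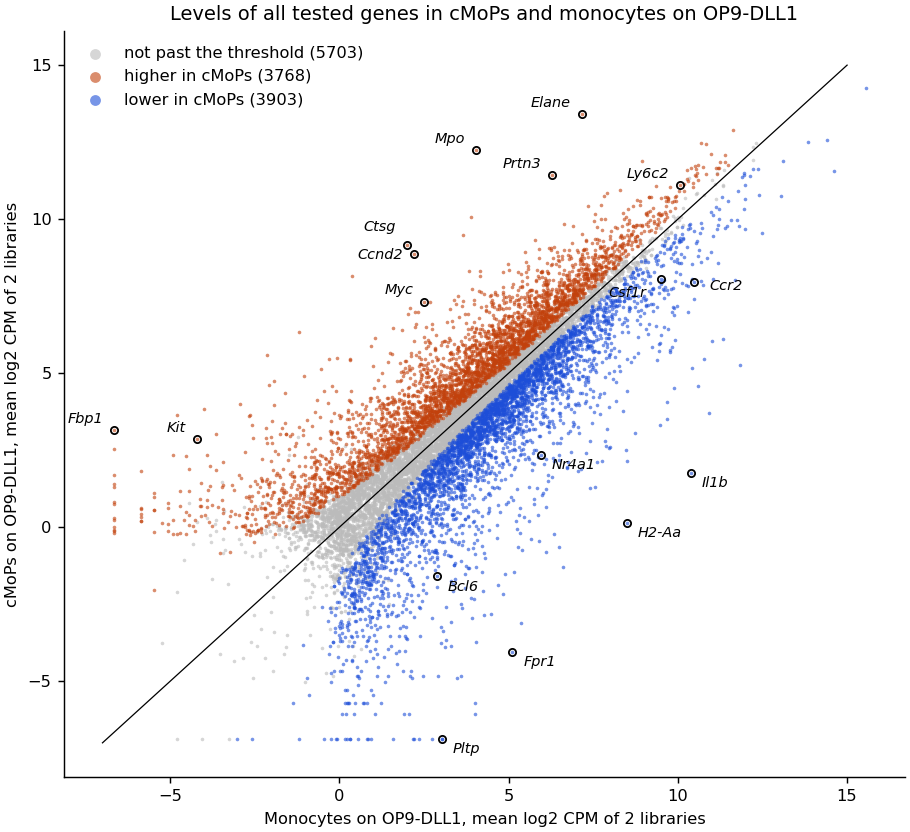
Mean log2 CPM of the 2 monocyte libraries (horizontal) and of the 2 cMoP libraries (vertical) on OP9-DLL1 for each of the 13374 tested genes, with 3768 higher in cMoPs in orange, 3903 lower in blue and the rest in grey. The line marks equal levels; Mpo, Elane, Ctsg and Kit lie far above it, and Il1b, H2-Aa, Fpr1 and Pltp far below.

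Primary granule genes held some of the largest differences. Mpo, myeloperoxidase, had 14.4 and 18.5 CPM in the monocyte libraries and 5277 and 4399 CPM in the cMoP libraries, a log2 difference of 8.21 (SE 0.53, adjusted p = 2.4e-06). Elane, neutrophil elastase, had 135 and 151 CPM in monocytes and 11922 and 9865 CPM in cMoPs (6.25, SE 0.18, adjusted p = 1e-07). Prtn3, proteinase 3, went from 67.7 and 90 CPM to 2817 and 2725 CPM (5.15, SE 0.3), and Ctsg, cathepsin G, from 3.54 and 4.53 CPM to 625 and 515 CPM (7.15, SE 0.44). Each cMoP library stood far above both monocyte libraries for Mpo and the 3 proteases. Prss57, another serine protease of the same granules, had 0.359 and 0.146 CPM in monocytes and 54 and 42.9 CPM in cMoPs (7.72, SE 0.81). Elane (chromosome 10, 79886247 to 79888215, plus strand, GRCm38), Prtn3 (79874476 to 79883174, plus strand) and Prss57 (79781474 to 79790961, minus strand) lie close together on 1 chromosome.

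Of the 15 measured genes of the primary granule list, 8 rose and 3 fell (53.3% and 20.0%, median log2 difference 2.28), and all 8 rises held whichever library was left out. Cst7, the protease inhibitor cystatin F, rose from 14.9 and 21.1 CPM to 320.5 and 320.2 CPM, Serpinb1a, an inhibitor of elastase, by a log2 difference of 2.34, and Ap3s1, a subunit of the AP-3 sorting adaptor, by 2.28. The 3 that fell were Man2b1, a lysosomal mannosidase (-0.82), Rab44 (-0.56) and Srgn, the granule proteoglycan serglycin (-0.38). The call of Rab44 ended without the second monocyte (adjusted p = 0.0813) or the second cMoP library (0.0613). That of Srgn ended without the first monocyte (0.259), the second cMoP (0.291) or either cMoP library on plain OP9 (0.0652 and 0.0655), and with libraries centred on their medians (0.114).

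The promoters of Mpo, Elane, Prtn3 and Ctsg are shown because their RNAs moved together, with the letters GGAAGT, a core bound by ETS factors such as PU.1, in capitals. Sequences are stretches of up to 100 bases within the 250 bases before the RefSeq start site (GRCm38.p6), without annotated UTR, written in the direction of the gene.
Elane, chr10:79886182-79886246, plus strand: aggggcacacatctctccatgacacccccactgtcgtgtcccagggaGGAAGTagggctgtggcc
Prtn3, chr10:79879527-79879613, plus strand: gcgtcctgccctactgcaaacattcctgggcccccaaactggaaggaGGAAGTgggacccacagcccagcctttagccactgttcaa
Ctsg, chr14:56102725-56102824, minus strand: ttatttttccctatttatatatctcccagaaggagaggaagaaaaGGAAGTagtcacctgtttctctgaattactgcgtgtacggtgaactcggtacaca
Mpo, chr11:87793534-87793580, plus strand: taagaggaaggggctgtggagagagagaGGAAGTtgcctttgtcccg
The letters, searched on both strands from 250 bases before to 50 bases after the start, were in 8 of the 10 list members with a promoter in the RefSeq table. Of these 8 members, Srgn and Man2b1 fell and Gusb did not pass. The letters were in 31% of the promoters of tested genes and 24.1% of all promoters, so the match is common. Spi1, which encodes PU.1, was itself lower in cMoPs, with 104 and 113 CPM in monocytes and 34.3 and 38.4 CPM in cMoPs (-1.58, SE 0.13).

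Regulators of progenitors were higher almost throughout: of 20 measured, 17 rose and 1 fell (85.0% and 5.0%, median log2 difference 3.57), and 15 of the rises held whichever library was left out. Myc, which drives growth and ribosome synthesis, had 5.06 and 6.32 CPM in monocytes and 167 and 154 CPM in cMoPs (4.83, SE 0.18, adjusted p = 2.2e-07). Cdk6, a cyclin D kinase, had 29.7 and 34.1 CPM against 388 and 368 CPM (3.57, SE 0.15), and Cd34, a progenitor sialomucin, 9.99 and 15.2 CPM against 144 and 143 CPM (3.54, SE 0.25). All of these were separated without overlap. Myb, required for blood progenitors, rose from 0.606 and 0.67 CPM to 20 and 15.2 CPM, and Sox4 from 0.318 and 0.708 CPM to 9.39 and 8.26 CPM. Erg, an ETS factor of stem and progenitor cells, had 0 reads in the monocyte libraries and 3.43 and 3.1 CPM in cMoPs, at least 109-fold higher against a floor of 3 reads over the group. Hoxa9 rose by 6.24 (SE 0.6) and Hoxa7 by 3.57 (SE 0.42). Etv6 fell by 0.35, a call that ended when any 1 of 6 libraries was left out, all but those of monocytes on plain OP9, with adjusted p of 0.0519 to 0.244. It also ended when libraries were centred on their medians (adjusted p = 0.144). Igf2bp2 and Ikzf2 did not pass.

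Beyond the lists, the largest rises included genes that are not standard progenitor markers. Fbp1, the gluconeogenic enzyme fructose bisphosphatase, had 0 reads in the monocyte libraries and 10.4 and 7.57 CPM in cMoPs, at least 299.6-fold higher. Nkg7, a granule membrane protein best known from cytotoxic lymphocytes, had 1.18 and 1.41 CPM in monocytes and 321 and 249 CPM in cMoPs (7.78, SE 0.3, adjusted p = 2.4e-07). Nr0b2, the nuclear receptor SHP, rose from 0.133 and 0.0291 CPM to 13 and 15.6 CPM. Fkbp11, a prolyl isomerase of the secretory pathway, rose from 0.154 and 1.23 CPM to 85.7 and 77.5 CPM, and Ppic, cyclophilin C, from 0.277 and 0.204 CPM to 29.2 and 20.7 CPM. The 15 largest by the naming rule also held Enpp4 (7.26), the amino acid transporter Slc43a1 (6.95), Ubash3a (6.71), Tctex1d1 (6.64) and the mucin Muc13 (6.29).

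**Figure D2:**
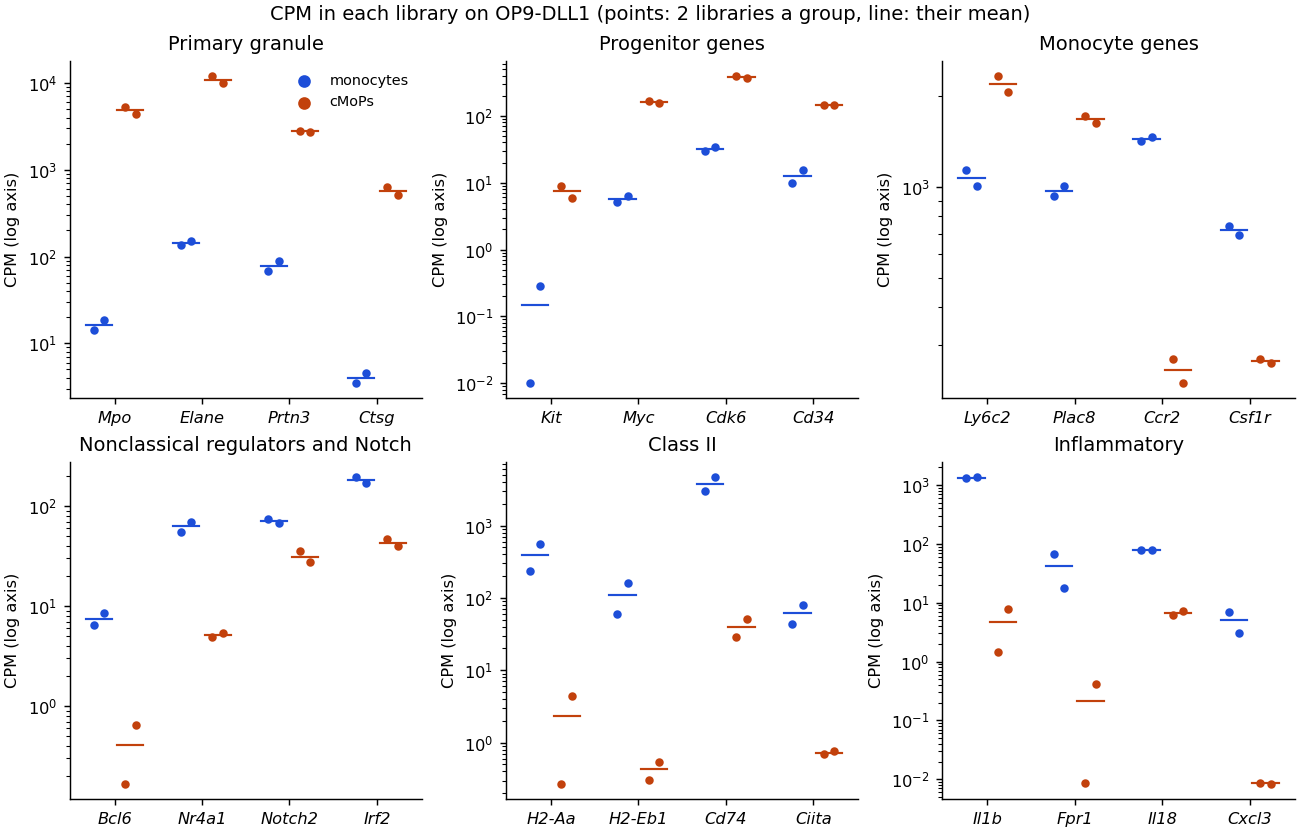
CPM on a log axis in each of the 2 monocyte (blue) and 2 cMoP libraries (orange) on OP9-DLL1, with a line at the group mean, for 6 sets of genes. Granule and progenitor genes, Ly6c2 and Plac8 are higher in both cMoP libraries, and the other genes are higher in both monocyte libraries.

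Genes of DNA replication rose without exception: all 47 listed genes passed the threshold (median log2 difference 2.7, range 0.76 to 5.02), 45 of them also under the 2-fold null. Every one of these calls held whichever library was left out. Mcm2, a subunit of the replicative helicase, had 13.9 and 16.2 CPM in monocytes and 209.9 and 219 CPM in cMoPs (3.83, SE 0.16). Mcm7, of the same helicase, had 29.1 and 35.9 CPM against 338 and 321 CPM (3.35, SE 0.14). Cdc6, which loads the helicase, had 12.6 and 12.7 CPM against 171 and 153 CPM (3.68, SE 0.17). For each, the cMoP libraries agreed closely and lay far above the monocyte libraries. Chaf1b, a chromatin assembly subunit, rose by 3.35, Rpa2, which binds single-stranded DNA, by 3.05, and Gins2, a helicase cofactor, by 2.72.

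Genes of mitosis differed far less. In the fit of all 8 libraries, 17 of 56 listed genes rose (30.4%, near the 28.2% of all genes), 2 fell and 37 did not pass. Their median was 0.52, and only 2 rose under the 2-fold null. The 17 moved with the libraries used: 8 rose without either monocyte library on OP9-DLL1, 6 without the first and 8 without the second cMoP library on it, 12 without either cMoP library on plain OP9 and 38 without either monocyte library on it. The count was 38 of 56 when only the 4 libraries on OP9-DLL1 were fitted, a fit in which 4110 of the 13374 genes rose. Without the mean-variance trend it was 9, with 3646 of all genes. The list summed to 2572 and 5463 CPM in the monocyte libraries on plain OP9, which enter the spread of the main fit. In those on OP9-DLL1 it summed to 4471 and 4762 CPM. Only 6 of the rises held whichever library was left out. Mki67, the proliferation antigen, had 114 and 106 CPM in monocytes and 137 and 109.8 CPM in cMoPs, and the groups overlapped (0.16, SE 0.31, adjusted p = 0.675). Pbk, a mitotic kinase, rose from 50.6 and 46.7 CPM to 187 and 174 CPM (1.89, SE 0.25), and Mybl2, a B-Myb factor of late cell cycle transcription, from 1.32 and 2.79 CPM to 16.9 and 19.5 CPM (3.24, SE 0.59). Spc24, a kinetochore subunit (1.3), Mad2l1, of the spindle checkpoint (1.47), and Aurkb, the Aurora B kinase (1.18), also rose. Ttk, a checkpoint kinase (1.06), lost its call without the first cMoP library (adjusted p = 0.0616). Cdk1, the mitotic kinase, had 136 and 135 CPM against 304 and 296 CPM (1.15, SE 0.34), and lost its call without any 1 of the 4 libraries on OP9-DLL1 (0.0645 to 0.0684). The 2 that fell, Cenpf (-0.97) and Cdc25b (-1.13), also lost their calls without any 1 of these 4 libraries (adjusted p 0.0609 to 0.13 and 0.0902 to 0.129).

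**Figure D3:**
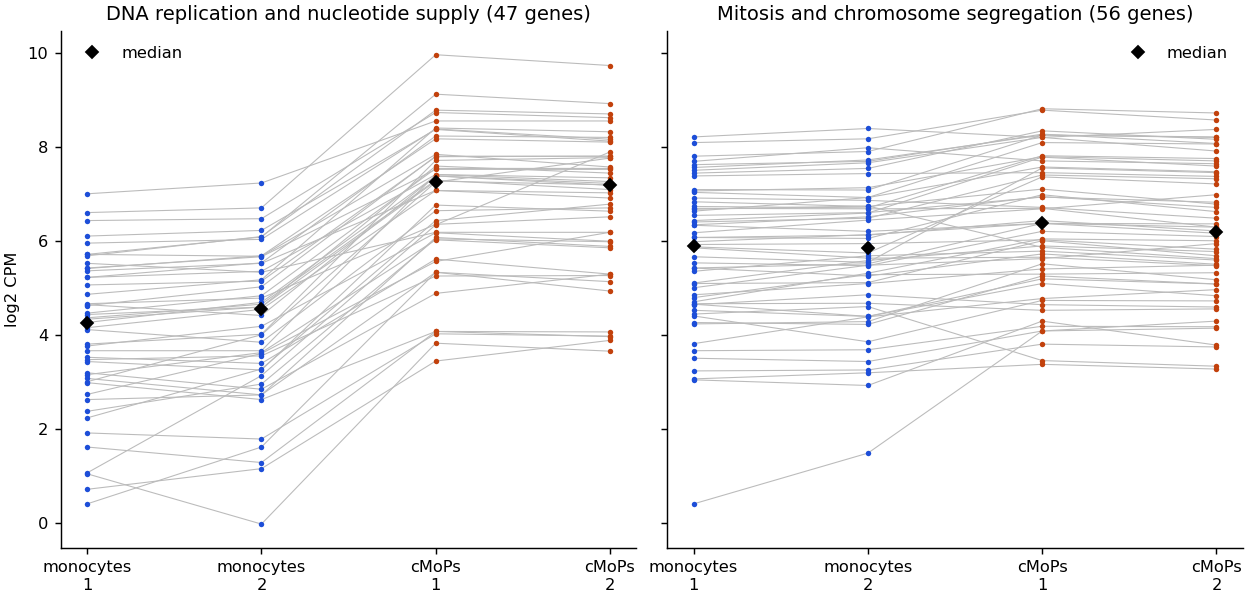
Log2 CPM of the 47 genes of DNA replication (left) and the 56 of mitosis (right) in each library on OP9-DLL1; grey lines join a gene, black diamonds mark the median. The replication median goes from 4.26 and 4.54 in monocytes to 7.25 and 7.18 in cMoPs, and the mitosis median from 5.9 and 5.84 to 6.37 and 6.18.

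Promoters of Cdc6, for replication, and of Cdk1, for mitosis, are shown because each carries the sequence element known for its gene class. In Cdc6 the capitals mark the reverse complement of the E2F element TTTCCCGC, and in Cdk1 the cell cycle homology element TTTGAA.
Cdc6, chr11:98907982-98908066, plus strand: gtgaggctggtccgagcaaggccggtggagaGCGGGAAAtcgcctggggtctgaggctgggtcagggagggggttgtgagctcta
Cdk1, chr10:69352939-69353030, minus strand: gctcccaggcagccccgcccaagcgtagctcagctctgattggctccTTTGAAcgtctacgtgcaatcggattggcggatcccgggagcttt
The E2F letters were in 7 of 37 replication promoters and 1 of 46 mitosis promoters, and in 2.27% of the promoters of tested genes. The cell cycle homology letters were in 32 of 46 mitosis promoters and 5 of 37 replication promoters, and in 12.6% of those of tested genes. Within each list, members with and without the letters had these median differences: 2.86 with (7 genes) and 2.69 without (30 genes) for E2F in replication, and 0.52 with (32 genes) and 0.59 without (14 genes) for the other element in mitosis.

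The list of G1 cyclins, kinases, E2F factors and brakes split, with 12 of 28 higher and 14 lower (42.9% and 50.0%). Ccnd2, cyclin D2, had 3.07 and 6.86 CPM in monocytes and 445 and 494 CPM in cMoPs (6.68, SE 0.42). Ccnd1 rose from 1.1 and 1.45 CPM to 13.6 and 20.4 CPM, Cdk4 from 173 and 197 CPM to 969 and 979 CPM (2.4, SE 0.1), and the S phase cyclin gene Ccne2 from 6.17 and 8.05 CPM to 66 and 48.1 CPM. Among the brakes, Btg1 and Btg2, antiproliferative factors, fell by 4.02 and 4.06: Btg1 had 834 and 902 CPM in monocytes and 55.7 and 51.5 CPM in cMoPs. Cdkn1a, p21, fell by 1.49, Cdkn1b, p27, by 2.67, and Rb1, the retinoblastoma gene, by 1.38. The list did not split by role. E2f2, an activating E2F, fell from 75.6 and 95.6 CPM to 32.8 and 31.2 CPM (-1.41), and E2f8, a repressive one, rose from 6.13 and 5.58 CPM to 27.3 and 24.8 CPM (2.16). Ccnd3, cyclin D3, fell (-0.62), a call that ended without the second monocyte (adjusted p = 0.175) or first cMoP library (0.178) and without the mean-variance trend (0.067). Of the 14 that fell, 9 held whichever library was left out, and of the 12 that rose, 9.

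Genes that build ribosomes and make nucleotides rose nearly as a block. In ribosome biogenesis, 37 of 38 rose and none fell (97.4%, median 2.27), 36 of them whichever library was left out. Nop56, of the snoRNPs that methylate ribosomal RNA, had 156 and 168 CPM in monocytes and 1501 and 1257 CPM in cMoPs (3.09, SE 0.12). Gnl3, nucleostemin, had 17 and 18.1 CPM against 209 and 196 CPM (3.53, SE 0.15), and Nop2, an RNA methyltransferase, 41.8 and 42 CPM against 268 and 241 CPM. The cMoP libraries were higher for each. RNAs for proteins of the mitochondrial ribosome rose in 35 of 36 cases with smaller differences (median 1.19), Mrpl12 by 2.37 being the highest. In one-carbon and nucleotide synthesis, 29 of 31 rose (93.5%, median 2.67). Shmt2, mitochondrial serine hydroxymethyltransferase, had 40.4 and 49.5 CPM against 467 and 509 CPM (3.45, SE 0.13), and Impdh2, for guanine nucleotides, 66.5 and 80.2 CPM against 528 and 533 CPM (2.86, SE 0.12). Among its 2 members that fell was Ctps2 (-0.5), whose call ended without the second cMoP library (adjusted p = 0.063). Genes of chromatin in dividing cells rose in 22 of 25 cases (median 1.18), among them the histone chaperone gene Set, with 294 and 329 CPM against 2011 and 1911 CPM. Tmpo was the only one of these to fall (-0.61), and its call ended without the first or second cMoP (adjusted p = 0.0555 and 0.0702) or the second monocyte library (0.0841). Cholesterol synthesis showed no common direction, with 3 of 22 genes higher (Acat2, Lss and Dhcr7), 3 lower (Mvd and Srebf2 among them) and a median of -0.01. Bulk RNA gives shares of the total, so fewer cells of a type and less RNA per cell cannot be told apart.

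**Figure D4:**
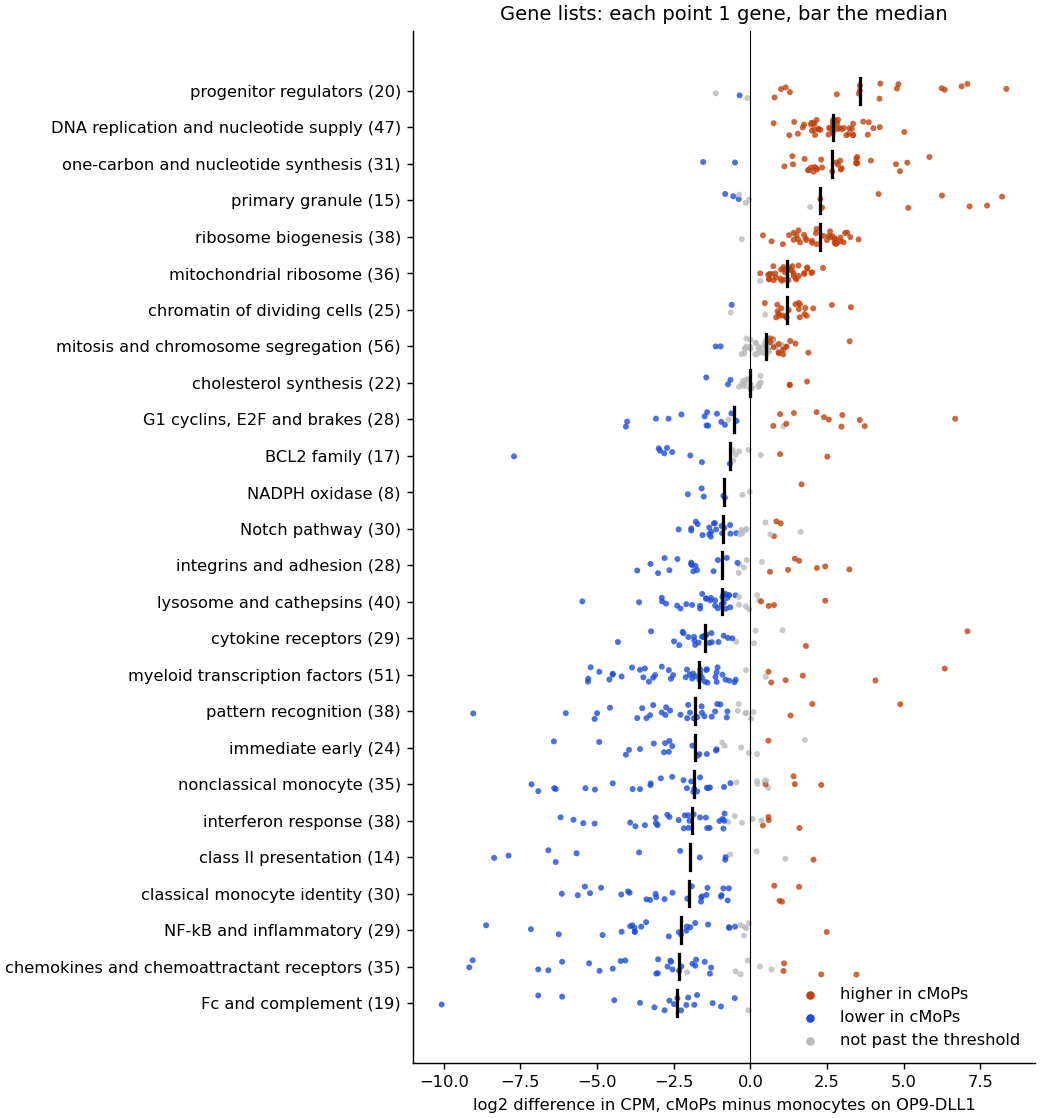
Log2 difference (cMoPs minus monocytes on OP9-DLL1) of each tested member of 26 gene lists, with the number of genes in brackets and a black bar at the list's median; orange is higher in cMoPs, blue lower, grey not past the threshold. Medians run from 3.57 for progenitor regulators to -2.38 for Fc receptors and complement.

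Genes of classical monocyte identity were mostly lower in cMoPs, 26 of 30 (86.7%, median -1.99), and 4 rose. Clec4a3, a lectin receptor, had 802 and 818 CPM in monocytes and 10 and 13.1 CPM in cMoPs (-6.15, SE 0.2). Vcan, versican, had 989 and 690.1 CPM against 18.8 and 14.9 CPM, and Fn1, fibronectin, 289 and 214 CPM against 6.02 and 5.78 CPM (-5.4, SE 0.16, adjusted p = 1e-07). No cMoP library reached the lowest monocyte library for these. Ccr2, the receptor that takes monocytes out of the marrow, had 1415 and 1456 CPM in monocytes and 270.4 and 226 CPM in cMoPs (-2.54, SE 0.12). S100a6 fell by 3.09 and Lyz2, lysozyme, by 3.07, and Cd14, the lipopolysaccharide co-receptor, by 3.27, though its monocyte libraries differed (1199 and 576 CPM). Among the 4 that rose were Ly6c2 (1.03), Ly6c1 (0.95) and Plac8 (0.78). The call of Ly6c1 ended without the second monocyte (adjusted p = 0.0631) or second cMoP library (0.0541). Ly6c1 and Ly6c2, Clec4a3 and Clec4a1, and the Bcl2a1 copies below are closely related in sequence, and counting may split reads between such copies.

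Genes of the nonclassical monocyte, the fate that Notch signals promote, were lower as well: of 35 measured, 25 fell and 4 rose (71.4% and 11.4%, median -1.83), with 20 of the falls held whichever library was left out. Bcl6, a transcriptional repressor, had 6.46 and 8.47 CPM in monocytes and 0.167 and 0.65 CPM in cMoPs (-4.49, SE 0.6, adjusted p = 0.0002). Irf2, an interferon regulatory factor, had 194 and 169 CPM against 46.8 and 39.6 CPM (-2.07, SE 0.16). Nr4a1, the nuclear receptor needed for these cells, had 55.4 and 69.9 CPM against 4.93 and 5.34 CPM (-3.6, SE 0.41). All 3 regulators were below every monocyte library in both cMoP libraries. Clec4a1 (-6.35), Cd300ld (-5.07) and Cd36, a scavenger receptor (-7.14), fell further, and Treml4 fell from 186 and 127 CPM to 16.6 and 15.9 CPM. Itgax, CD11c, fell by 1.74 and Itgal, LFA-1, by 1.86. The 4 that rose were Cx3cr1, the fractalkine receptor, from 2.43 and 2.28 CPM to 8.77 and 15.4 CPM (2.31), Spn, CD43, from 17 and 22.8 CPM to 56.8 and 51.1 CPM (1.45), Slc12a2 (1.41) and Lair1 (0.5). The call of Lair1 ended without the first monocyte (adjusted p = 0.0821) or first cMoP library (0.0591), and that of Slc12a2 without any 1 of the 4 libraries on OP9-DLL1 (0.0768 to 0.121). Cd22, a lectin, had 9.74 and 13.3 CPM in monocytes and 6.31 and 8.5 CPM in cMoPs (-0.64, SE 0.45, adjusted p = 0.254). It passed as lower when only these 4 libraries were fitted (0.0465), with voom (0.0371) and with voom and sample weights (0.0216).

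The Notch pathway itself was lower in cMoPs in 19 of 30 measured genes (63.3%, median -0.88), with 3 higher, and 13 of the falls held whichever library was left out. Of the receptors, Notch1 had 43.9 and 33.6 CPM in monocytes and 12.4 and 10 CPM in cMoPs (-1.78, SE 0.18), and Notch2 75.1 and 67.3 CPM against 35.2 and 27.5 CPM (-1.19, SE 0.16, adjusted p = 0.000188). Both receptors were lower in both cMoP libraries. The receptor processing enzymes Furin (-1.93), Adam17 (-1.29) and Adam10 (-0.92) fell, as did Lfng, a Fringe glycosyltransferase (-1.72), the co-repressor Spen (-1.34) and the inhibitor Numb (-1.34). Rbpj, which recruits Notch to DNA, was lower by a log2 difference of -0.65 (SE 0.17), and its call ended without the first monocyte (adjusted p = 0.0749) or second cMoP library (0.0572). Hes1, a direct target, had 11.7 and 11.3 CPM in monocytes and 2.92 and 3.13 CPM in cMoPs (-1.93, SE 0.58, adjusted p = 0.0176), and its call ended without any 1 of these 4 libraries (0.0884 to 0.129) or at a filter of 5 CPM (0.112). On plain OP9 Hes1 had 0.0346 and 0.0465 CPM in monocytes and 0.0529 and 0.0456 CPM in cMoPs, and the difference between the stromas did not pass for it (-2.22, SE 0.82, adjusted p = 0.426). The 3 that rose were Mfng, another Fringe gene (0.99), Poglut1, which glycosylates Notch (0.77), and Dtx4 (0.85). The call of Dtx4 ended without the second monocyte (adjusted p = 0.364), the first or second cMoP (0.23 and 0.0649) or either cMoP library on plain OP9 (0.0739 and 0.0741), and when only the 4 libraries on OP9-DLL1 were fitted (0.0684).

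Most myeloid transcription factors were lower in cMoPs, 43 of 51 (84.3%, median -1.66). Id3 and Id2, which block E proteins, had 1608 and 1894 CPM and 933 and 1015 CPM in monocytes, against 42.7 and 45.9 CPM and 64 and 70.2 CPM in cMoPs. The macrophage factor Maf (-5.29), Tcf7l2 (-3.17), Zeb2 (-2.52), Runx1 (-1.87) and Cebpb (-1.64) fell too. Spic, a factor of red pulp macrophages, had 124 and 116 CPM against 11.4 and 10 CPM (-3.49, SE 0.32). Of the 6 that rose, Gfi1, a repressor that guides the granulocyte and monocyte branches, had 0.0103 and 0.204 CPM in monocytes and 3.94 and 3.47 CPM in cMoPs (6.34, SE 1.16). Its 0.0103 CPM lies below the 0.0205 CPM of 1 read in that library, so 6.34 depends on the reads added before the log. Gfi1b (4.08), Mef2c (1.71) and Cebpe (1.15) kept their calls whichever library was left out. Klf4 (0.59) and Cebpa (0.68) did not. Klf4 lost its call without the first monocyte (adjusted p = 0.129), first cMoP (0.108) or second cMoP library (0.0602) and without the mean-variance trend (0.0552), and Cebpa without the second monocyte (0.176), first cMoP (0.0665) or second cMoP library (0.131). Irf8, which drives monocyte fate, had 160.1 and 233 CPM in monocytes and 234 and 321 CPM in cMoPs and did not pass (0.5, SE 0.22, adjusted p = 0.0742). It passed without the second monocyte (0.0282), the first cMoP (0.0464) or either monocyte library on plain OP9 (0.0425 and 0.0429), with centred libraries (0.0336) and with voom and sample weights (0.0302).

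Class II antigen presentation was among the lowest groups, with 10 of 14 genes lower and 1 higher (71.4%, median -1.97). H2-Aa, a class II alpha chain, had 235 and 556 CPM in monocytes and 0.272 and 4.43 CPM in cMoPs (-8.36, SE 1.08). H2-Eb1, a beta chain, had 60.3 and 158 CPM against 0.307 and 0.548 CPM (-7.89, SE 0.55), and H2-Ab1 283 and 636 CPM against 9.16 and 7.58 CPM (-5.67, SE 0.37). The second monocyte library was above the first for each, and both were above the cMoP libraries. Cd74, the invariant chain, had 2965 and 4600.0 CPM against 29.1 and 50.9 CPM (-6.59, SE 0.29), and Ciita, the class II transactivator, 44.2 and 79.7 CPM against 0.694 and 0.768 CPM (-6.35, SE 0.52). Ctss, the protease that trims the invariant chain, fell by 3.63 (adjusted p = 1e-07), and H2-DMa, a peptide editor, by 0.82. H2-Oa, which inhibits that editor, was the one that rose, from 0.831 and 1.04 CPM to 5.19 and 2.91 CPM (2.06). These falls and this rise held whichever library was left out.

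The promoters of H2-Aa and H2-Eb1, whose RNAs fell together, are shown with the Y box letters GATTGG, or their reverse complement, in capitals; the Y box is the element bound by NF-Y in class II promoters.
H2-Aa, chr17:34287824-34287923, minus strand: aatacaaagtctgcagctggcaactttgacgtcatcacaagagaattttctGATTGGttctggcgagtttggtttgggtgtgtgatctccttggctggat
H2-Eb1, chr17:34305767-34305866, plus strand: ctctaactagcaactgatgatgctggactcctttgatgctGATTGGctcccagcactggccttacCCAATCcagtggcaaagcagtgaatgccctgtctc
The letters were in 7 of 10 class II promoters of the table, in 19 of 37 replication promoters and in 21.9% of those of tested genes, so lists that moved in opposite directions both held them. H2-Ab1, Cd74 and Ciita had no entry.

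Sensing and effector genes of monocytes were lower in cMoPs. Of 38 pattern recognition genes, 29 fell (76.3%, median -1.79), among them Clec4n, Dectin-2, with 1797 and 1327 CPM against 21.4 and 26.4 CPM (-6.02, SE 0.21), Clec7a, Dectin-1 (-4.58), Tlr2 (-2.28), Tlr4 (-1.97) and Tlr13 (-5). Marco, a scavenger receptor, had 9.78 and 2.09 CPM in monocytes and 0 reads in cMoPs, at least 225-fold lower, but its call ended without the first monocyte library (adjusted p = 0.075). The 3 that rose were Mgl2, CD301b, with 3.13 and 2.82 CPM against 112 and 69.6 CPM (4.89), Clec12a (2.02) and Clec5a (1.31). Of 19 Fc receptor and complement genes, 18 fell and none rose (94.7%, median -2.38). C3ar1 and C5ar1, anaphylatoxin receptors, fell by 6.92 and 6.14. Of 8 NADPH oxidase genes, 5 fell, Cybb from 691 and 559 CPM to 158 and 145 CPM (-2.04), and only the proton channel gene Hvcn1 rose (1.67).

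Inflammatory genes and chemoattractants showed the steepest falls. Il1b, interleukin-1β, had 1332 and 1339.8 CPM in monocytes and 1.47 and 7.87 CPM in cMoPs (-8.62, SE 0.64, adjusted p = 5.3e-06). Of 29 NF-κB and inflammatory genes, 23 fell (79.3%, median -2.26), including Il18 (-3.56), Il1rn, the receptor antagonist (-3.77), Cd86 (-3.78) and Nfkbia, the NF-κB inhibitor (-2.09). Il12a rose alone, from 2.62 and 0.98 CPM to 9.97 and 8.16 CPM (2.49). Of 35 chemokines and chemoattractant receptors, 25 fell (71.4%, median -2.32). Fpr1, the formyl peptide receptor, had 68.3 and 17.6 CPM in monocytes and 0.00878 and 0.413 CPM in cMoPs (-9.17, SE 1.59, adjusted p = 0.001, but 0.0519 with voom weights for each value). Its 0.00878 CPM lies below the 0.0176 CPM of 1 read in that library, so -9.17 depends on the reads added before the log. Ccl5 had 1474 and 1266 CPM against 40.7 and 31.2 CPM (-5.26), and Cxcl3 6.95 and 3.06 CPM against 0 reads, at least 191-fold lower, with an adjusted p of 0.13 by voom. The 4 that rose were Cx3cr1, Ccl12, Cxcr2 and Cxcr4. The last 3 lost their calls with 1 library left out: Ccl12 without the first monocyte (adjusted p = 0.0684) or first cMoP library (0.0722), Cxcr2 without the first monocyte (0.138) or either cMoP library (0.0733 and 0.0752), and Cxcr4 without any 1 of 6 libraries, all but the monocytes on plain OP9 (0.056 to 0.157). Ccl12 had 2 reads in monocytes and 29 in cMoPs, a ratio of 12.5 (counting interval at 95%, 3.16 to 108), and its call also ended with voom (adjusted p = 0.232).

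Further lists were lower too. Immediate early genes fell in 17 of 24 cases (70.8%), Fos from 1023 and 792 CPM to 130.4 and 124 CPM (-2.82) and Atf3 from 31.5 and 27.7 CPM to 0.571 and 0.211 CPM (-6.41), and Klf4 alone rose. Interferon response genes fell in 28 of 38 cases (73.7%), Irf7 from 221 and 189 CPM to 17 and 20.9 CPM (-3.44) and Isg15 by 2.71. Lysosomal genes fell in 30 of 40 cases (75.0%), Lgmn, legumain, from 195 and 194 CPM to 4.12 and 4.63 CPM (-5.48). Cytokine receptors fell in 23 of 29 cases (79.3%), Il13ra1 by 4.32, Il10ra by 2.49 and Csf1r by 1.43. Besides Kit, the receptor gene Il27ra rose (1.81), a call that ended without the second monocyte (adjusted p = 0.116) or first cMoP library (0.0901). In the BCL2 family, the survival gene Mcl1 fell by 2.55 and Bcl2a1d by 2.81, and the proapoptotic Bcl2l11, BIM, by 2.72. Bcl2 itself rose from 1.59 and 2.13 CPM to 9.86 and 11.1 CPM (2.51), and Bid by 0.97.

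Most risers in the interferon and lysosome lists lost their calls when 1 library was left out, several of them whichever of many libraries it was. Bst2 (0.6) and Cd63 (2.44), a tetraspanin of granules, kept their calls. Psmb9 (0.59) lost its call without the first monocyte library (adjusted p = 0.0664). Psmb8 (0.41) lost it without any 1 of 6 libraries, all but the monocytes on plain OP9 (0.0659 to 0.201), and so did Atp6v1h (0.35, 0.0661 to 0.179). Ifit2 (1.6) lost it without the second monocyte (0.337), the first or second cMoP (0.244 and 0.058) or either cMoP library on plain OP9 (0.0661 and 0.0643), and when only the 4 libraries on OP9-DLL1 were fitted (0.0609). Glb1 (0.6) lost it without the first monocyte (0.248), either cMoP (0.141 and 0.099) or either cMoP library on plain OP9 (0.0577). Gaa (0.77) lost it without the first monocyte (0.0709) or first cMoP library (0.0633).

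Adhesion genes split. Of 28, 16 fell and 7 rose (57.1% and 25.0%), and all 7 rises held whichever library was left out. Itgb2, the shared β2 integrin chain, had 1344 and 1103 CPM in monocytes and 245 and 224 CPM in cMoPs (-2.38), and its partner Itgam, CD11b, 116 and 98.2 CPM against 18 and 13.1 CPM (-2.8). In the other direction, Itga6, the α6 integrin, rose from 1.26 and 1.15 CPM to 12.9 and 9.98 CPM (3.23), Cd81 by 2.17, Icam2 by 1.23 and Cd47 by 0.64.

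The largest falls outside these lists were in genes with few or no reads in cMoPs. Pltp, the phospholipid transfer protein, had 8.22 and 8.16 CPM in monocytes and 0 reads in cMoPs, at least 317-fold lower, and Scel, sciellin, 7.89 and 8.45 CPM and 0 reads, at least 316-fold lower. Snai1, with 3.58 and 7.17 CPM in monocytes, was at least 209.8-fold lower. Flrt3 had 1605 reads in monocytes and 2 in cMoPs, a ratio of 930.3 (interval 257 to 7689). Mmp14, a membrane metalloprotease, had 44.6 and 38.7 CPM against 0.0439 and 0.312 CPM (-8.47), Cmklr1, the chemerin receptor, fell by 8.38 and Ms4a8a by 8.42. Both monocyte libraries were above both cMoP libraries in each of these genes, which the naming rule required and which held for every called lower gene.

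Markers of other cells were measured beside these results. OP9 cells are mouse cells, so their RNA would be counted with the rest. Of 27 stroma genes, 12 were tested, and 1 rose and 5 fell (41.7%). Acta2 (81.2 and 57.6 CPM against 6 and 3.57 CPM) and Thbs1 (781 and 473 CPM against 84 and 40.2 CPM) were lower in cMoPs, while Igfbp4 was higher (1.82 and 2.05 CPM against 54.9 and 64.4 CPM). The other 9 summed to 6.85 and 25.4 CPM in the monocyte libraries and 5.29 and 2.03 CPM in the cMoP libraries. Of these, Timp2 (-3.15), Bgn (-3.02) and Pdgfrb (-2.81) were called lower, calls that ended with 1 library left out. Timp2 lost its call without any 1 of the 4 libraries on OP9-DLL1 (adjusted p 0.0706 to 0.16). Bgn lost it without the second monocyte (0.104) or second cMoP library (0.0649), and Pdgfrb without the first or second monocyte (0.0814 and 0.14) or first cMoP library (0.155). Of 16 neutrophil genes, 5 fell (31.2%, near the 29.2% of all genes) and 2 rose (12.5%). The 16 summed to 1969 and 1966 CPM in monocytes and 838 and 773 CPM in cMoPs. Mmp8 alone had 927 and 534 CPM against 14.8 and 6.71 CPM, and the neutrophil surface gene Ly6g was not analysed here. The 2 that rose, Cxcr2 and Cebpe, are in the lists above. Macrophage genes fell in 10 of 14 cases, C1qb from 65.2 and 93.2 CPM to 13.3 and 14.5 CPM, and summed to 594 and 549 CPM against 116 and 111 CPM, with Cd163 the one that rose (2.38). The part of these cells in the results was not tested.

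Lymphoid, erythroid and mast cell lists held few tested genes. Cd79b (12.9 and 18 CPM against 57.8 and 63.1 CPM) and Ighm (55.6 and 82.7 CPM against 184 and 197 CPM) rose among 4 B cell genes, which summed to 78.7 and 115 CPM in monocytes and 250.1 and 269 CPM in cMoPs; Cd79a was not analysed here. Of the 2 T and NK cell genes Nkg7 rose and Lck did not pass (1.99, SE 0.78, adjusted p = 0.0533). Lck passed as higher in 6 alternatives (0.0368 to 0.0487): without the trend, with centred libraries, and without either monocyte library on plain OP9, the second monocyte or the first cMoP library on OP9-DLL1. Car2 rose (2.59) and Car1 did not pass among 2 erythroid genes, at 15.2 and 20.3 CPM summed in cMoPs; Car1 passed as higher without the second monocyte library (adjusted p = 0.015). Gata2, a factor of mast cells and progenitors, rose (4.24), and Mcpt8, a basophil protease, had 0.359 and 6.61 CPM in monocytes and 11.5 and 14.3 CPM in cMoPs. The difference of Mcpt8 fell from 3.06 to 0.96 without the first monocyte library (adjusted p = 0.357), and its call also ended without the first or second cMoP (0.117 and 0.156) or either cMoP library on plain OP9 (0.067 and 0.0674). Pf4 and Ppbp, platelet chemokines, fell, Ppbp from 7.11 and 6.38 CPM to 0 reads. Of 7 dendritic cell genes, Mgl2 and Bst2 rose and Batf3 (-5.21), Cd209a (-3.9) and Tcf4 (-0.48) fell. Cd209a differed between the monocyte libraries (4.2 and 27.5 CPM), and the call of Tcf4 ended without the second monocyte (adjusted p = 0.218) or either cMoP library (0.108 and 0.0839) and with centred libraries (0.078). The part of these cells in the results was not tested.

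The same contrast on plain OP9 used the other 4 libraries, and 7550 genes (56.5%) were called there. Of the 3768 genes higher in cMoPs on OP9-DLL1, 3109 were also higher on plain OP9 (82.5% of the first list and 80.7% of the second). Of the 3903 lower genes, 3088 were lower on both (79.1% and 83.5%). Across the 13374 genes the 2 sets of log2 differences had a Pearson r of 0.91, which is across genes that share gene models and depth and carries no p. Mpo differed by 8.66 on plain OP9 against 8.21 on OP9-DLL1, Elane by 6.13 against 6.25, and Il1b by -8.46 against -8.62. The ribosome biogenesis median was 1.75 on plain OP9 and 2.27 on OP9-DLL1, and the mitosis list had 29 rises on plain OP9 and 17 on OP9-DLL1; these list differences were not tested. Called in opposite directions were 8 genes, with Pecam1 and Il21r among them.

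Tested directly, the contrast differed between the stromas in 7 genes (0.0523%), 4 of them with a higher log2 difference on OP9-DLL1. Spic had 124 and 116 CPM in monocytes and 11.4 and 10 CPM in cMoPs on OP9-DLL1, against 1.42 and 2.04 CPM and 0 reads on plain OP9 (fitted stroma difference 4.19, adjusted p = 0.0216). With 0 reads in a group the fitted value depends on the reads added before the log: at the floor of 3 reads the fall on plain OP9 was at least 70.6-fold and the stroma difference at least 2.65. The call of Spic ended with voom (adjusted p = 0.204) and with voom and sample weights (0.136). Pla2g7, a lipoprotein phospholipase, had 76.3 and 57.5 CPM in cMoPs on OP9-DLL1 and 3.47 and 4.26 CPM on plain OP9, while monocytes had 2364 and 1802 CPM and 1453 and 871 CPM (3.23, SE 0.35, adjusted p = 0.0216, but 0.0692 with voom). Both genes were lower in cMoPs on either stroma, by less on OP9-DLL1. Hmga1, a chromatin protein, had 54 and 55.5 CPM in OP9-DLL1 monocytes and 150.2 and 132 CPM on plain OP9, with 667 and 621 CPM and 653 and 653 CPM in cMoPs (1.34, SE 0.15). Gpatch4 showed the same pattern, with 18.7 and 17.8 CPM in OP9-DLL1 monocytes and 56.6 and 70.6 CPM on plain OP9, and 198 to 241 CPM in all cMoP libraries (1.54, SE 0.19). Plac8 had 939 and 1012 CPM in OP9-DLL1 monocytes and 223 and 209 CPM on plain OP9, and 1726 and 1629 CPM against 1276 and 1281 CPM in cMoPs (-1.78, SE 0.14, adjusted p = 0.00524). Pecam1, an adhesion molecule, had 38 and 36.4 CPM in OP9-DLL1 monocytes and 7.12 and 6.83 CPM on plain OP9, and 20.1 to 23.5 CPM in all cMoP libraries (-2.33, SE 0.21). Il21r had 65.8 and 71.4 CPM and 13.4 and 17.1 CPM in monocytes, and 28.3 to 38.8 CPM in cMoPs (-1.92, SE 0.23). For Hmga1, Gpatch4, Plac8, Pecam1 and Il21r the monocyte libraries thus differed more between stromas than the cMoP libraries did. Without the mean-variance trend none of the 7 was called (adjusted p 0.0581 to 0.229). Without the first monocyte library on plain OP9 the count was 29 and without the second 1124. Without any 1 of the other 6 libraries limma called 0 genes, with 788 to 1076 genes at an unadjusted p under 0.05, against 1309 with all 8 libraries.

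**Figure D5:**
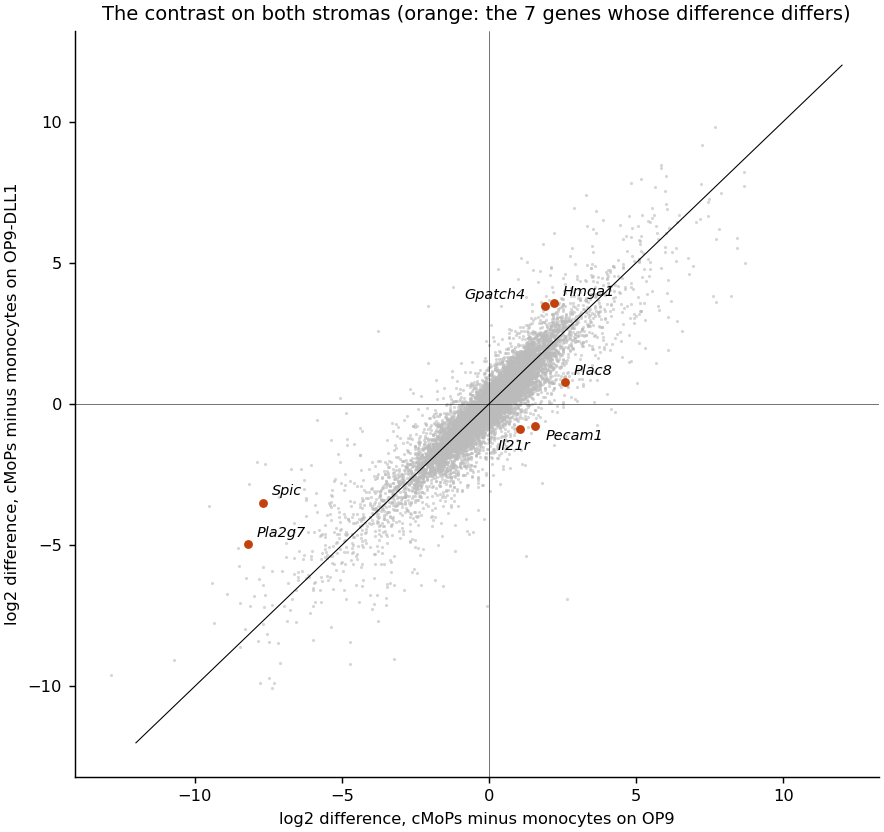
Log2 difference, cMoPs minus monocytes, on plain OP9 (horizontal) and on OP9-DLL1 (vertical) for the 13374 tested genes, with a line at equal differences. The 7 genes whose difference differed between the stromas are in orange; Pecam1 and Il21r lie on opposite sides of 0 on the 2 stromas.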

How the data were processed

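RNA-seq of 8 libraries (4 groups of 2) was analysed. Per the submitters' processing notes, the tools were STAR 2.7.9a, featureCounts 2.0.3, Salmon 1.5.2, edgeR and limma on mm10. The labels name a low-input cDNA kit (SMARTer Ultra Low) that does not mark strand, so overlapping antisense genes cannot be told apart. The values deposited by the authors are log2 CPM; the first of repeated entries per identifier was kept (13388 identifiers, 42 entries dropped), and the deposited fold changes and p-values were not used. Every value equals log2 of reads plus 0.5 over an effective library size: whole reads came out for 100% of values (tolerance 0.001).

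Genes with at least 1 CPM in 2 or more libraries (13374) were fitted with limma 3.58.1 (R 4.3.3), using the log2 CPM as deposited, a mean for each group, all 8 libraries (4 residual degrees of freedom) and a mean-variance trend, and p-values were adjusted by Benjamini-Hochberg over all genes. A floor of 3 reads over a group was used where a group had 0 reads, and counting intervals are exact binomial ones. Both cover counting error only. Where only 1 library of a group had 0 reads, a fitted difference depends on the reads added before the log.

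The members and lists were chosen with earlier results of these data known. Named by rule were the 15 highest and 15 lowest called genes without overlap between the groups, at a mean of at least 5 CPM. A fixed set of regulators and up to 6 members per list were also named by rule. A further 73 genes were chosen after their values were seen. Promoters are RefSeq, GRCm38.p6, first entry per gene, clipped where GENCODE M21 annotates a UTR; gene positions are from GENCODE M21 (GRCm38). The 4 motifs were searched on both strands, and none contains another. Alternatives are in the closing section. Some results are not reported here.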

Additional observations from a re-analysis of the deposited data

Results flagged for a closer look

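In 7 genes the difference between cMoPs and monocytes differed between OP9-DLL1 and plain OP9 by a test of that difference (limma, adjusted over all genes). The values are the log2 difference on OP9-DLL1 minus that on plain OP9. Spic (4.19, adjusted p = 0.0216), Pla2g7 (3.23, 0.0216), Gpatch4 (1.54, 0.0298) and Hmga1 (1.34, 0.0252) had the higher difference on OP9-DLL1. The value of Spic is a fitted one against a group with 0 reads, and is at least 2.65 at the floor of 3 reads. With voom, Spic (0.204) and Pla2g7 (0.0692) lost the call. Pecam1 (-2.33, 0.00944), Il21r (-1.92, 0.0298) and Plac8 (-1.78, 0.00524) had the lower one. Each lost its call when 1 library other than the monocytes on plain OP9 was left out; Plac8, with the smallest p, then had adjusted p of 0.0553 to 0.121.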

How the results depend on the processing

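On OP9-DLL1 the 7671 called genes became 6397 to 8659 under the other normalizations, filters and fits, and 5956 to 8598 with 1 library left out. A null of at least 2-fold left 2178, of which 1002 were higher. On plain OP9 the 7550 became 1869 under the 2-fold null, 6329 to 7674 under the other alternatives, and 5500 to 7807 with 1 library left out. The 7 genes that differed between stromas became 1 without the mean-variance trend and 0 under the 2-fold null (limma; 100 genes at an unadjusted p under 0.05), and with 1 library left out ranged from 0 to 1124; the cause was not tested. Centring each library on its median moved the median difference of all genes from -0.01 to 0.1, and the share higher among called genes from 49.1% to 54.6%. Deviations of same-numbered libraries correlated weakly over the tested genes, at 0.023 to 0.089. This cannot exclude that replicate numbers pair the libraries, and pairing in single genes was not tested. With a replicate block the counts were 7897 on OP9-DLL1, 7674 on plain OP9 and 11 for the difference between stromas. Irf8 passed with the replicate block (adjusted p = 0.0398). Of 282 called named genes, 246 kept their call under every alternative but the 2-fold null; 14 lost it without the mean-variance trend. Signs changed only in genes that did not pass: with 1 library left out Mki67 ranged from -0.0021 to 0.32, Igf2bp2 from -2.41 to 0.15 and Ikzf2 from -0.39 to 0.18, and Ikzf2 was 0.0033 with centred libraries. Genes with few reads limit precision: the lowest values rest on 0 to 3 reads.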

Other observations

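Gene classes outside the lists also differed. Of 1507 processed pseudogenes, 525 were higher and 133 lower in cMoPs on OP9-DLL1 (34.8% and 8.83%, median log2 difference 0.54). Of 205 long intergenic noncoding RNAs, 36 were higher and 76 lower (17.6% and 37.1%, median -0.56). Antisense genes were higher in 19 and lower in 90 of 216 cases (8.8% and 41.7%, median -0.99), and genes of the class awaiting experimental support in 6 and 145 of 293 (2.05% and 49.5%, median -1.41). Protein-coding genes split evenly, with 3104 higher and 3323 lower of 10737 (median -0.05). These counts were not tested. The kit does not mark strand, so reads counted for an antisense gene may come from an overlapping gene on the other strand. Processed pseudogenes resemble their parent genes in sequence, and counting may split reads between such copies. The counts of these classes therefore cannot be assigned to their own RNA alone.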
